A study of Mus musculus with 8 samples.

Results

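The nuclear-encoded subunits of the respiratory chain were followed in hand-picked pancreatic islets of mice without the insulin-degrading enzyme gene Ide. Genes were taken by symbol among the protein-coding genes of the mouse annotation: Ndufa, Ndufb, Ndufc, Ndufs or Ndufv followed by a number for complex I, Sdha to Sdhd for complex II, Uqcr genes and Cyc1 for complex III, Cox4 to Cox8 genes for complex IV, and Atp5 genes for complex V. The rule gave 85 of 55487 gene identifiers, 36 for complex I, 4 for complex II, 9 for complex III, 18 for complex IV and 18 for complex V. They carry 84 symbols, because Atp5o has a second identifier (ENSMUSG00000116933) that was listed at 0 in every library. The rule used no measured values. The complex given for a gene, such as complex I for Ndufa4, follows its symbol alone and was not checked against the protein's place.

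RNA sequencing had been done on islets of C57BL/6J mice, labelled as females that were 10 weeks old when they began 2 weeks on a high-fat diet with 60 kcal% fat. The 3 Ide-/- libraries and 5 Ide+/+ libraries differed by genotype only, as far as the labels say, and all animals had the diet. Ide encodes the protease that breaks down insulin, and the comparison asks how its absence alters islet transcripts under the diet. The labels call the libraries biological replicates of a knockout and its wild type. They give neither the deleted part of the gene, nor a promoter or Cre line, nor the number of animals per library. The p-values therefore describe the spread among these libraries, which could be technical if an animal gave several of them.

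The respiratory chain sits in the inner mitochondrial membrane. Complexes I and II pass electrons from NADH and succinate to coenzyme Q, complex III passes them to cytochrome c, complex IV passes them to oxygen, and complex V uses the resulting proton gradient to make ATP. In beta cells, ATP made from glucose in this way closes potassium channels and so leads to insulin release. Complex II is encoded by nuclear genes alone, while the other complexes combine nuclear-encoded subunits with subunits encoded by the mitochondrial genome.

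The libraries differed in make-up before any member was considered. Ide counts were 6, 7 and 4 in the Ide-/- libraries, against 391, 765, 572, 481 and 256 in the Ide+/+ libraries. Total counts were 17445976, 13237966 and 7143424 in the Ide-/- libraries, and 19277303 to 33371662 in the Ide+/+ libraries. A list of 34 markers of acinar cells, the enzyme-secreting cells around the islets, took 0.659% to 1.38% of all counts in the Ide-/- libraries and 22.2% to 37.8% in the Ide+/+ libraries, and all 34 were lower in Ide-/- islets (median log2 fold change −6.34). Duct markers (7 of 10 lower) and macrophage markers (10 of 12 lower) moved the same way in the edgeR fit of counts described below. There 1 of 12 beta cell markers was lower and 0 were higher, where 10.6% of all genes were lower and 10.4% higher. Of 8 alpha cell markers 1 was lower, of 6 delta and PP cell markers 1 was higher, and 0 of 10 endothelial markers passed. A fit of TPM called 4 duct and 4 macrophage markers lower and 2 beta cell markers higher, beside 2.25% of all genes lower and 37.1% higher. The beta cell identity of the islets was visible in both groups, with 211294 to 346399 TPM of Ins2 in Ide-/- libraries and 41403 to 159005 TPM in Ide+/+ libraries. Genes of the mitochondrial genome took 9.81%, 15.1% and 28.2% of counts in the Ide-/- libraries, against 0.512%, 9.43%, 9.28%, 4.92% and 7.21% in the Ide+/+ libraries. Ide+/+ replicate 1 stood apart with the lowest of these shares, 692 Xist counts and 0 Ddx3y counts, whereas the other 7 libraries had at most 11 Xist counts and 503 to 2139 counts of the Y-linked Ddx3y, against their label as female. Ide+/+ replicates 2 and 3 were nearly alike, with a correlation of 0.991 between their log2 counts across genes and a chi-square of 6.31 per degree of freedom, against 64.9 or more for every other pair of libraries. They differed by more than counting noise and were kept as 2 libraries, and the count of lower members is also given with their sum as 1 library.

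Of the 85 identifiers, 79 had enough counts to be tested. The other 6 (Cox6b2, Cox7a1, Cox7b2, Cox8b, Cox8c and the second Atp5o identifier) averaged under 1 TPM over the 8 libraries, TPM being the authors' length-corrected share of a library. Tested members averaged 5.95 to 255 TPM, with a median of 81.9 TPM. A member passed when its adjusted p was under 0.05 in edgeR's quasi-likelihood test fitted over all 16266 tested genes. CPM are counts scaled to library size with TMM, which takes most genes as not differing.

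On the TMM scale, 22 of the 79 tested members were lower in Ide-/- islets and 0 were higher, whereas a fit of TPM called 0 lower and 13 higher. At an unadjusted p under 0.05, 40 were lower and 0 higher on the TMM scale, where 2951 and 2926 of all 16266 genes were. DESeq2 called 32 members lower and 0 higher, where it called 11.7% of all genes lower. Over all tested genes the background on the TMM scale was 21.1% called in either direction, 10.6% lower and 10.4% higher, so that the members' share of lower calls, 27.8%, was above it and their share of higher calls, 0%, below it. The median log2 fold change of the members was −0.53, against −0.01 over all genes, and 72 of 79 members were below 0, against 50.4% of all genes. The size of the calls was modest, from −0.53 to −1.38 on the log2 scale, with SE of 0.17 to 0.36. In 36 members all 3 Ide-/- libraries lay below all 5 Ide+/+ libraries in CPM, where 15.6% of all genes did so, and in 0 members they lay above, where 17.4% of all genes did.

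The direction depended on the scale. As a share of all counts the members took 0.670%, 0.614% and 0.574% of the Ide-/- libraries, against 0.265%, 0.436%, 0.436%, 0.340% and 0.281% of the Ide+/+ libraries, so their share of the library was higher without Ide. In deposited TPM, 39 of 79 members had every Ide-/- library above every Ide+/+ library, where 39.3% of all genes did, and 1 member, Cox5a, had every one below, where 2.8% of all genes did. A limma fit of log2(TPM + 1) called 13 members higher and 0 lower, against 37.1% higher and 2.25% lower over all genes. The median member difference in that fit was 0.44 and the median gene's was 0.67, which left members 0.23 below the median gene. The members' median lay 0.52 below that of all genes on the TMM scale. This order turned in other fits. In log2(TPM + 1) without a filter the members' median lay 0.30 above that of all genes. The members' own median was 0.43 there, and that of all genes was 0.13, with 30481 genes fitted in place of 11468. With the acinar share as a covariate the members' median lay 0.91 above that of all genes. Scaling on 15 secretory granule genes of islet cells, in place of TMM, moved the median of all genes to 0.11 and left 4 members lower (Sdhc, Cox5a, Atp5b and Atp5d) and 0 higher, against a background of 5.23% lower and 5.63% higher. Their median then lay 0.51 below that of all genes.

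The acinar share separated the groups without overlap, so genotype and acinar RNA cannot be told apart. With the acinar share as a covariate, 0 members passed in either direction (12 of all genes did, 0.0738%), and the members' median log2 fold change became 0.91. Whether fewer cells of a type or less RNA per cell lay behind any value below cannot be told apart in these bulk libraries. Leaving out the acinar markers and the mitochondrial genome before TMM scaling gave 22 lower members (10.6% of all genes). With the same genes left out before TPM was rescaled, 2 members were lower and 2 higher, where 3.58% and 12.9% of all genes were. The members' median difference was then 0.0053, against 0.34 over all genes, and 39 of 80 members were below 0.

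The count also moved with single libraries. Without Ide-/- replicates 1 to 3 in turn, 5, 1 and 2 members were lower, where 5.71%, 4.75% and 5.0% of all genes were. Without Ide+/+ replicates 1 to 5 in turn, 25, 31, 27, 12 and 17 members were lower, where 13.3%, 10.6%, 10.2%, 6.88% and 9.83% of all genes were. With Ide+/+ replicates 2 and 3 summed, a choice made after seeing the data, 28 members were lower (10.3% of all genes) and 21 of the 22 calls remained. Atp5g2 no longer passed in that fit (log2 fold change −0.54, edgeR adjusted p = 0.0659). The 7 members that newly passed there were Uqcrc1 (−0.99), Cox7b (−0.97), Ndufs8 (−0.78), Cox6b1 (−0.81), Atp5f1 (−0.92), Sdha (−1.04) and Sdhb (−1.11), with edgeR adjusted p of 0.0284 to 0.0484. The other ways of fitting counts gave 32 lower members in DESeq2 (11.7% of all genes), 21 with RLE size factors (10.6%), 25 in limma-voom (10.4%), 25 without the low-count filter (5.89%) and 25 with a length trend removed (11.5%). Fits of TPM gave 11 higher and 0 lower members with a pseudocount of 0.1 (30.3% and 2.13% of all genes). They gave 10 higher and 0 lower without a filter (12.7% and 1.09%). After rescaling the libraries without the acinar markers and the mitochondrial genome, 2 were higher and 2 lower (12.9% and 3.58%). The last pair of lower genes were Cox5a and Atp5c1.

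**Figure D1:**
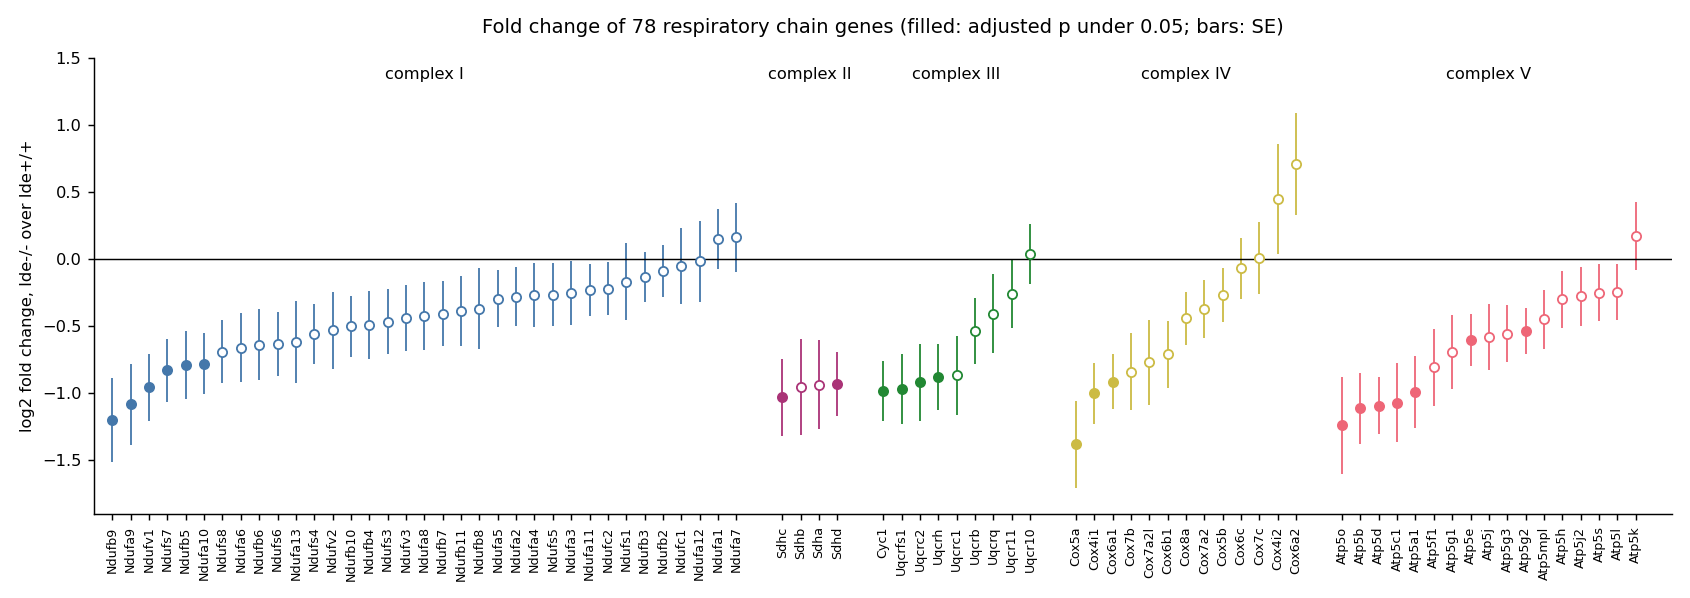
Log2 fold change (Ide-/- over Ide+/+, edgeR, TMM scale) of 78 of the 79 tested genes by complex; bars are SE, and filled points have an adjusted p under 0.05. All 22 filled points lie below 0, between −0.53 and −1.38, and complexes II and III hold few points near 0.

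Promoters of the members were read for motifs of factors known to drive respiratory chain genes, and 4 are shown because they set a pair of lower genes beside a pair that did not pass. Each is the 150 bases that end just before the more upstream of the annotated starts, from RefSeq on GRCm38.p6, in lower case on the strand of the gene. Capitals mark matches, on either strand, to the GC-rich palindromic motif of nuclear respiratory factor 1 (NRF1) and to CCGGAAG of ETS factors such as GABP. Cox6a1 (chr5:115348982-115349131, minus strand) and Sdhd (chr9:50603850-50603999, minus strand) were lower in Ide-/- islets. Ndufa11 (chr17:56717612-56717761, plus strand) and Ndufa1 (chrX:37191239-37191388, minus strand) had log2 fold changes of −0.23 and 0.15 and did not pass.
Cox6a1: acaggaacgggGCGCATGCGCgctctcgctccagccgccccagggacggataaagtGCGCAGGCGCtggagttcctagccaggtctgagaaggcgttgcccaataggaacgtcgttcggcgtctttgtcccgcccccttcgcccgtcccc
Sdhd: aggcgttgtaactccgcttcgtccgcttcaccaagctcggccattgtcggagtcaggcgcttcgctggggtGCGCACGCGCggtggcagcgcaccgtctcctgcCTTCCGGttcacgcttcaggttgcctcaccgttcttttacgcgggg
Ndufa11: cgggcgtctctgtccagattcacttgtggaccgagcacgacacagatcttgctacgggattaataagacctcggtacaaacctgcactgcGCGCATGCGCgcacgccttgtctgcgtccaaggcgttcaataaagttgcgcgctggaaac
Ndufa1: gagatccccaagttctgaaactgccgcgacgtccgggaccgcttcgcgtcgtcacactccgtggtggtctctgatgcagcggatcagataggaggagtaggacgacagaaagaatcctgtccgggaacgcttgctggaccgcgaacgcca

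In windows of 250 bases before to 50 bases after the RefSeq start, 17 of the 66 members with an entry (25.8%) held the NRF1 motif, against 7.17% of 17491 protein-coding genes. The ETS motif was in 16 of 66 members (24.2%), against 12.9% of the genes. The YY1 motif AAGATGGCG was in 7 of 66 members (10.6%), against 2.14%, and the ERRA motif TCAAGGTCA in 2 (3.03%), against 0.377%. Among tested members with an entry, 5 of the 16 that were lower and 12 of the 46 that did not pass held the NRF1 motif, and for the ETS motif the counts were 4 of 16 and 12 of 46. A motif match is a description of letters, not of a bound site. Members without an entry included Atp5a1, Atp5f1, Atp5mpl, Atp5s, Cox4i1, Cox4i2, Cox6a2, Cox6c, Cox8c, Cyc1, Ndufa2, Ndufb9, Ndufs1, Sdhc, Uqcrb, Uqcrc2 and Uqcrq.

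Complex I oxidises NADH and is the largest complex of the chain. Of its 36 genes, 6 (16.7%) were lower in Ide-/- islets and 0 higher, where 10.6% of all genes were lower and 10.4% higher. The median log2 fold change was −0.41. In 10 of the 36 genes every Ide-/- library was below every Ide+/+ library in CPM, against 15.6% of all genes. In the limma fit of TPM, 8 of the 36 (22.2%) were higher and 0 lower, where 37.1% and 2.25% of all genes were. The median difference in that fit was 0.52, against 0.67 over all genes. The 6 genes were Ndufv1, Ndufs7, Ndufa9, Ndufa10, Ndufb5 and Ndufb9.

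Ndufv1 encodes the subunit that binds flavin mononucleotide and takes the electrons from NADH (ENSMUSG00000037916; GRCm38 chromosome 19, 4007384 to 4012806, minus strand). It had 23.3, 21.2 and 18.6 CPM in the Ide-/- libraries, against 58.1, 29.4, 32.0, 37.6 and 47.7 CPM in the Ide+/+ libraries. The groups did not overlap, and Ide+/+ replicate 1 was the highest library. The log2 fold change was −0.95 (edgeR adjusted p = 0.0199, SE 0.25).

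Ndufs7, which carries the last iron-sulfur cluster before coenzyme Q (ENSMUSG00000020153; chromosome 10, 80249121 to 80256794, plus strand), had 22.7, 24.0 and 24.9 CPM in the Ide-/- libraries, against 56.2, 31.7, 31.1, 44.3 and 48.8 CPM in the Ide+/+ libraries. All Ide-/- libraries were below all Ide+/+ libraries, with a log2 fold change of −0.83 (edgeR adjusted p = 0.0281, SE 0.23). Among the other genes of the catalytic core, 0 passed. Log2 fold changes were −0.69 for Ndufs8 (adjusted p = 0.0561, edgeR), −0.53 for Ndufv2, −0.46 for Ndufs3 and −0.17 for Ndufs1.

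Accessory subunits of complex I surround the core and serve its assembly and stability. Ndufb9 (ENSMUSG00000022354; chromosome 15, 58933756 to 58939488, plus strand) gave the strongest difference in the complex, with 40.8, 40.2 and 44.7 CPM in the Ide-/- libraries, against 115, 58.0, 57.7, 121 and 130 CPM in the Ide+/+ libraries. Ide+/+ replicates 2 and 3 were well below the other Ide+/+ libraries, and all were above the Ide-/- values. Its log2 fold change was −1.20 (edgeR adjusted p = 0.0208, SE 0.32). Ndufa9 had 19.6, 23.1 and 18.4 CPM in the Ide-/- libraries, against 68.0, 27.5, 28.6, 40.6 and 51.6 CPM in the Ide+/+ libraries (log2 fold change −1.08, edgeR adjusted p = 0.0267, SE 0.30). Ndufa10 had 20.9, 19.2 and 16.1 CPM in the Ide-/- libraries, against 45.0, 25.3, 25.4, 31.7 and 34.4 CPM in the Ide+/+ libraries (−0.78, edgeR adjusted p = 0.0321, SE 0.23). Ndufb5 had 22.2, 24.5 and 25.9 CPM in the Ide-/- libraries, against 59.1, 29.3, 29.8, 41.1 and 49.9 CPM in the Ide+/+ libraries (−0.79, edgeR adjusted p = 0.0475, SE 0.26). In these 3 genes the groups did not overlap, and replicates 2 and 3 were the lowest Ide+/+ libraries.

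The complex I genes with the highest level per length did not pass on the TMM scale. Ndufa1, a small membrane-arm subunit, had 459, 346 and 320 TPM in the Ide-/- libraries, against 117, 218, 226, 196 and 159 TPM in the Ide+/+ libraries, the highest mean of any member. Its CPM overlapped between groups (73.3 to 90.4 in Ide-/- libraries, 57.7 to 90.8 in Ide+/+ libraries; log2 fold change 0.15, edgeR adjusted p = 0.666, SE 0.22). Ndufc1 had 290, 274 and 339 TPM in the Ide-/- libraries, against 119, 178, 185, 172 and 163 TPM in the Ide+/+ libraries. Its log2 fold change on the TMM scale was −0.05 (edgeR adjusted p = 0.92, SE 0.28), with overlapping CPM.

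Complex II, succinate dehydrogenase, links the citric acid cycle to the chain and has 4 subunits. Sdhc and Sdhd, which anchor it in the membrane and hold its heme, passed, with 0 genes higher. The median log2 fold change was −0.94, and in 3 of 4 genes the groups did not overlap in CPM. Over all genes 10.6% were lower, 10.4% were higher and 15.6% lay below without overlap. In the TPM fit 0 of the 4 passed, where 37.1% of all genes were higher. Their median difference was 0.03, where the median over all genes was 0.67.

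Sdhc (ENSMUSG00000058076; chromosome 1, 171127165 to 171150603, minus strand) had 17, 15.3 and 15.8 CPM in the Ide-/- libraries, against 56.9, 28.1, 27.3, 28.8 and 22.9 CPM in the Ide+/+ libraries. All Ide-/- libraries were below, and Ide+/+ replicate 1 was far above the other Ide+/+ libraries. The log2 fold change was −1.03 (edgeR adjusted p = 0.0257, SE 0.29). Sdhd (ENSMUSG00000000171; chromosome 9, 50596357 to 50603812, minus strand) had 41.3, 41.3 and 33.1 CPM in the Ide-/- libraries, against 106, 61.6, 62.8, 70.0 and 68.1 CPM in the Ide+/+ libraries. It did not overlap either, at −0.93 (edgeR adjusted p = 0.0181, SE 0.24).

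The catalytic subunits of complex II had similar estimates with wider spread. Sdha, the flavoprotein that oxidises succinate, had 54.0, 63.4 and 49.7 CPM in the Ide-/- libraries, against 195, 75.1, 74.2, 84.6 and 105 CPM in the Ide+/+ libraries (log2 fold change −0.94, edgeR adjusted p = 0.0641, SE 0.33). Sdhb, the iron-sulfur subunit, had 42.0, 45.7 and 58.2 CPM in the Ide-/- libraries, against 150, 53.2, 54.8, 83.0 and 130 CPM in the Ide+/+ libraries (−0.95, edgeR adjusted p = 0.0794, SE 0.36). Neither passed, and Sdhb overlapped between the groups. With Ide+/+ replicates 2 and 3 summed, all 4 genes of the complex were lower.

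Complex III, the cytochrome bc1 complex, had 4 of 9 genes lower (44.4%, against 10.6% of all genes) and 0 higher (against 10.4%). The median log2 fold change was −0.87, and 5 of the 9 genes lay below without overlap in CPM, against 15.6% of all genes. In the TPM fit 1 gene, Uqcr10, was higher (11.1%, against 37.1% of all genes) and 0 were lower. The median difference in TPM was 0.19, against 0.67 over all genes. Cyc1, the cytochrome c1 that hands electrons to cytochrome c (ENSMUSG00000022551; chromosome 15, 76343523 to 76346260, plus strand), had 22.9, 19.9 and 16.3 CPM in the Ide-/- libraries, against 43.8, 30.4, 30.6, 45.8 and 45.2 CPM in the Ide+/+ libraries. The groups did not overlap, and the log2 fold change was −0.98 (edgeR adjusted p = 0.0112, SE 0.22). Uqcrfs1, the Rieske iron-sulfur protein (ENSMUSG00000038462; chromosome 13, 30540308 to 30545362, minus strand), had 35.4, 32.3 and 29.7 CPM in the Ide-/- libraries, against 95.5, 47.0, 48.1, 60.1 and 67.4 CPM in the Ide+/+ libraries. It did not overlap, at −0.97 (edgeR adjusted p = 0.0224, SE 0.26).

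Of the core proteins of complex III, Uqcrc2 passed and Uqcrc1 did not, though their estimates were close. Uqcrc2 had 26.3, 27.8 and 26.5 CPM in the Ide-/- libraries, against 84.9, 37.5, 35.7, 43.3 and 52.9 CPM in the Ide+/+ libraries (log2 fold change −0.92, edgeR adjusted p = 0.0407, SE 0.29). Uqcrc1 had 58.8, 61.7 and 58.1 CPM in the Ide-/- libraries, against 150, 68.4, 75.5, 101 and 148 CPM in the Ide+/+ libraries (−0.87, edgeR adjusted p = 0.0569, SE 0.30). Uqcrh, the hinge protein next to cytochrome c1, had 40.6, 39.2 and 43.0 CPM in the Ide-/- libraries, against 90.3, 55.1, 54.0, 88.2 and 88.5 CPM in the Ide+/+ libraries (−0.88, edgeR adjusted p = 0.0268, SE 0.25). In all 3 the Ide-/- libraries lay below every Ide+/+ library. The small subunits were nearer to 0 on the TMM scale, with −0.54 for Uqcrb, −0.40 for Uqcrq, −0.26 for Uqcr11 and 0.04 for Uqcr10, and none of these passed. Uqcr11 and Uqcrq had the highest levels per length in the complex, at 303 ± 21.3 and 288 ± 32.6 TPM in Ide-/- libraries (SD, n = 3), against 194 ± 38.2 and 201 ± 39.5 TPM in Ide+/+ libraries (SD, n = 5).

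Complex IV, cytochrome c oxidase, had 3 of 13 tested genes lower (23.1%, against 10.6% of all genes) and 0 higher (against 10.4%). The median log2 fold change was −0.44, and 7 of the 13 genes lay below without overlap in CPM, against 15.6% of all genes. In the TPM fit 3 genes (Cox6a2, Cox6c and Cox7c) were higher (23.1%, against 37.1% of all genes) and 0 lower. The median difference in TPM was 0.46, against 0.67 over all genes. The 3 lower genes on the TMM scale were Cox5a, Cox4i1 and Cox6a1. Cox5a, which with Cox4i1 starts the assembly around the mitochondrial-encoded Co1 subunit (ENSMUSG00000000088; chromosome 9, 57521274 to 57532426, plus strand), had the strongest difference of any member. It had 17.8, 15.9 and 17.1 CPM in the Ide-/- libraries, against 66.6, 25.7, 25.7, 50.1 and 52.7 CPM in the Ide+/+ libraries. The Ide-/- libraries lay close together, below every Ide+/+ library, and the log2 fold change was −1.38 (edgeR adjusted p = 0.0129, SE 0.33). It was also the member with all Ide-/- libraries below all Ide+/+ libraries in TPM, at 49.4, 41.4 and 34.5 TPM in the Ide-/- libraries, against 54.8, 53.1, 51.0, 61.0 and 51.0 TPM in the Ide+/+ libraries, though the TPM fit did not pass (difference −0.38, adjusted p = 0.213, limma).

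Cox4i1, the largest nuclear-encoded subunit of complex IV (ENSMUSG00000031818; chromosome 8, 120668222 to 120674207, plus strand), had 59.2, 63.2 and 58.2 CPM in the Ide-/- libraries, against 134, 95.6, 96.7, 138 and 138 CPM in the Ide+/+ libraries. The gap between the groups was wide relative to the spread inside Ide-/-, and the log2 fold change was −1.0 (edgeR adjusted p = 0.0114, SE 0.23). Cox6a1 (ENSMUSG00000041697; chromosome 5, 115345642 to 115348981, minus strand), the subunit VIa form found outside heart and skeletal muscle, had 42.9, 40.7 and 41.2 CPM in the Ide-/- libraries, against 85.6, 65.0, 66.7, 89.7 and 84.8 CPM in the Ide+/+ libraries. It did not overlap, at −0.91 (edgeR adjusted p = 0.0105, SE 0.21). Of the others, Cox7b came closest to passing (−0.84, edgeR adjusted p = 0.055, SE 0.28), Cox5b was at −0.27, and Cox7c and Cox6c, the most abundant of the complex per length, were at 0.01 and −0.07.

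Complex V, the ATP synthase, had 7 of 17 tested genes lower (41.2%, against 10.6% of all genes) and 0 higher (against 10.4%). The median log2 fold change was −0.58, and 11 of the 17 genes lay below without overlap in CPM, against 15.6% of all genes. In the TPM fit 1 gene, Atp5k, was higher (5.88%, against 37.1% of all genes) and 0 were lower. The median difference in TPM was 0.34, against 0.67 over all genes. All 5 genes of the F1 head, where ATP is made, were lower on the TMM scale. Atp5d, the delta subunit of the rotor stalk (ENSMUSG00000003072; chromosome 10, 80138632 to 80145818, plus strand), had the smallest p of any member. It had 20.5, 17.1 and 12.3 CPM in the Ide-/- libraries, against 37.2, 34.2, 34.6, 41.8 and 30.2 CPM in the Ide+/+ libraries. Here Ide+/+ replicate 4 was the highest library and replicates 1 to 3 were close, and the log2 fold change was −1.09 (edgeR adjusted p = 0.00514, SE 0.21). It was the one member that passed in all 8 fits that left out 1 library, with adjusted p of 0.00323 to 0.0309.

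Atp5b, the catalytic beta subunit (ENSMUSG00000025393; chromosome 10, 128083273 to 128090391, plus strand), had 99.2, 88.0 and 83.6 CPM in the Ide-/- libraries, against 285, 161, 155, 199 and 176 CPM in the Ide+/+ libraries (log2 fold change −1.11, edgeR adjusted p = 0.0137, SE 0.27). Atp5a1, the alpha subunit that alternates with it in the head, had 70.7, 68.2 and 70.2 CPM in the Ide-/- libraries, against 216, 113, 108, 129 and 126 CPM in the Ide+/+ libraries (−0.99, edgeR adjusted p = 0.0237, SE 0.27). Both were below every Ide+/+ library, and both were highest in Ide+/+ replicate 1. Atp5c1, the gamma shaft, had 42.7, 50.2 and 48.2 CPM in the Ide-/- libraries, against 155, 68.7, 68.2, 91.3 and 111 CPM in the Ide+/+ libraries (−1.07, edgeR adjusted p = 0.0246, SE 0.29). Atp5e, the small epsilon subunit, had 46.4, 47.3 and 44.1 CPM in the Ide-/- libraries, against 76.8, 61.9, 60.6, 77.5 and 72.3 CPM in the Ide+/+ libraries (−0.60, edgeR adjusted p = 0.0447, SE 0.19). Neither gene overlapped between the groups, and Atp5e had one of the smaller differences among the lower genes.

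Outside the F1 head, Atp5o and Atp5g2 were lower. Atp5o, which joins the head to the peripheral stalk (ENSMUSG00000022956; chromosome 16, 91925214 to 91931687, minus strand), had 40.2, 42.6 and 54.2 CPM in the Ide-/- libraries, against 131, 57.6, 61.5, 117 and 171 CPM in the Ide+/+ libraries. The highest Ide-/- library was just below the lowest Ide+/+ library, and the log2 fold change was −1.24 (edgeR adjusted p = 0.0323, SE 0.36). Atp5g2, 1 of 3 genes for the membrane ring subunit c, had 17.7, 15.9 and 16.6 CPM in the Ide-/- libraries, against 27.1, 25.0, 23.5, 24.9 and 20.5 CPM in the Ide+/+ libraries, at −0.53 (edgeR adjusted p = 0.0435, SE 0.17). The other subunit c genes, Atp5g1 and Atp5g3, were at −0.69 and −0.55 and did not pass, though their groups did not overlap. The peripheral stalk gene Atp5f1 was at −0.81 (adjusted p = 0.0663, edgeR), and Atp5l, Atp5s, Atp5h and Atp5k had −0.24, −0.25, −0.30 and 0.17 with overlapping CPM. Atp5l, an abundant membrane subunit, had 230, 231 and 197 TPM in the Ide-/- libraries, against 106, 185, 187, 143 and 117 TPM in the Ide+/+ libraries.

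**Figure D2:**
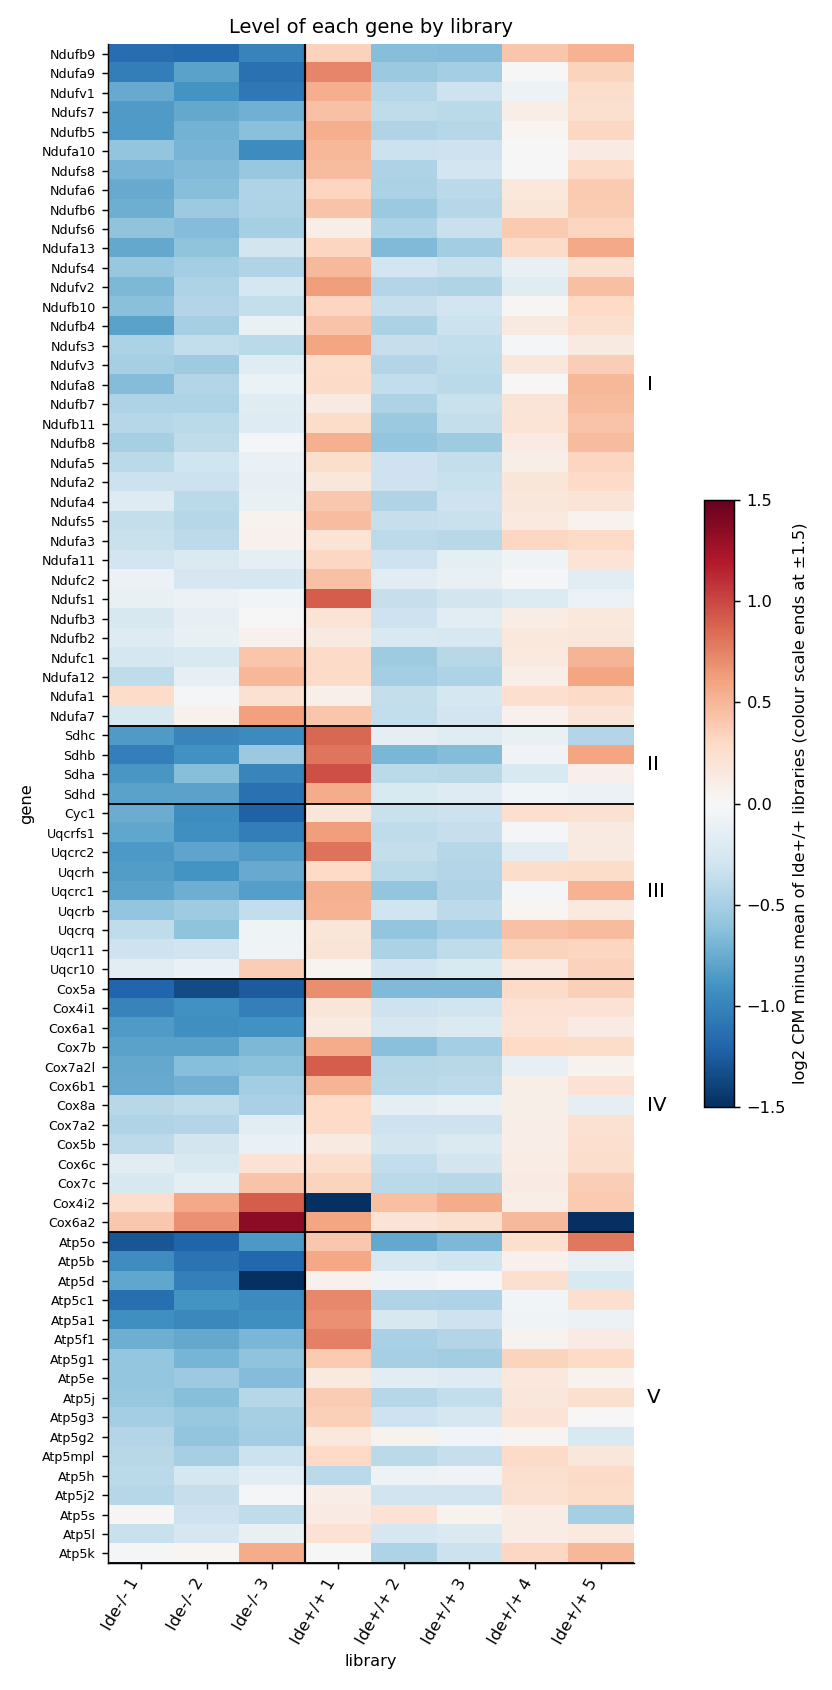
Log2 CPM of 78 tested genes in each library, as the difference from the mean of the 5 Ide+/+ libraries (colour; blue lower, red higher), with Ide-/- libraries on the left and complexes I to V from top to bottom. Ide+/+ replicate 1 is mostly red, and Ide+/+ replicates 2 and 3 are pale blue and close to each other.

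Within the Ide+/+ group the members moved together by library. The median member stood 0.35, −0.38, −0.34, 0.11 and 0.25 (log2 CPM minus the Ide+/+ mean) in Ide+/+ replicates 1 to 5, and −0.58, −0.54 and −0.41 in the Ide-/- libraries. Replicate 1 was the highest Ide+/+ library for 48 of 79 members and replicate 2 the lowest for 48. The Ide+/+ libraries with the lowest members, replicates 2 and 3, were also those with the smallest acinar share, at 22.2% and 22.4%, and the part of acinar RNA in this order was not tested. The median coefficient of variation of a member was 9.37% over the Ide-/- libraries and 26% over the Ide+/+ libraries. No such value is given for all genes, so whether this spread is particular to the members was not tested.

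Members of a core list and the other members, called accessory here, differed in the size of their difference. The core list held 23 genes: 7 genes of complex I, the 4 of complex II, Cyc1, Uqcrfs1, Uqcrc1 and Uqcrc2, the largest nuclear-encoded subunits of complex IV (Cox4i1, Cox5a and Cox5b), and the 5 of the F1 head. The list was a choice made for this comparison and is wider than the catalytic subunits. It was made with earlier results of these data known, so the split is not independent of them. On the TMM scale 14 of 23 core genes were lower (60.9%), with a median log2 fold change of −0.94. Of 56 accessory genes 8 were lower (14.3%), with a median of −0.41, where 10.6% of all genes were lower. The TPM fit called 2 core genes (8.7%) and 11 accessory genes (19.6%) higher, where 37.1% of all genes were. Their medians in that fit were 0.13 and 0.52, against 0.67 over all genes. The core genes' part of all member TPM, which does not depend on library scaling, was 18.0%, 18.0% and 15.9% in the Ide-/- libraries, against 21.8%, 21.0%, 20.4%, 18.8% and 18.6% in the Ide+/+ libraries. These shares did not overlap, though Ide-/- replicates 1 and 2 came close to Ide+/+ replicates 4 and 5.

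Transcript length ran along with the difference. Core genes had a median length of 1141 bases in the deposited tables and accessory genes of 580 bases. Among the 79 members, log2 fold change and log2 length had a Spearman's rho of −0.57 as a description across genes, which are not independent; all points share the same 8 libraries. Across all 16266 tested genes rho was 0.01. Members of up to 500 bases had a median log2 fold change of −0.25 (n = 10), those of 500 to 700 bases −0.37 (n = 32), those of 700 to 1000 bases −0.55 (n = 16), those of 1000 to 1500 bases −0.94 (n = 16) and those of 1500 to 2500 bases −0.92 (n = 5). Over all tested genes the medians of the same ranges lay between −0.09 and 0.01. The rank correlation among members was −0.56 with granule gene scaling, −0.48 in TPM and −0.57 after a length trend over all genes had been removed. It was −0.21 with the acinar share as a covariate, where it was −0.17 over all tested genes. Core status and length overlap in these genes and cannot be told apart here.

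**Figure D3:**
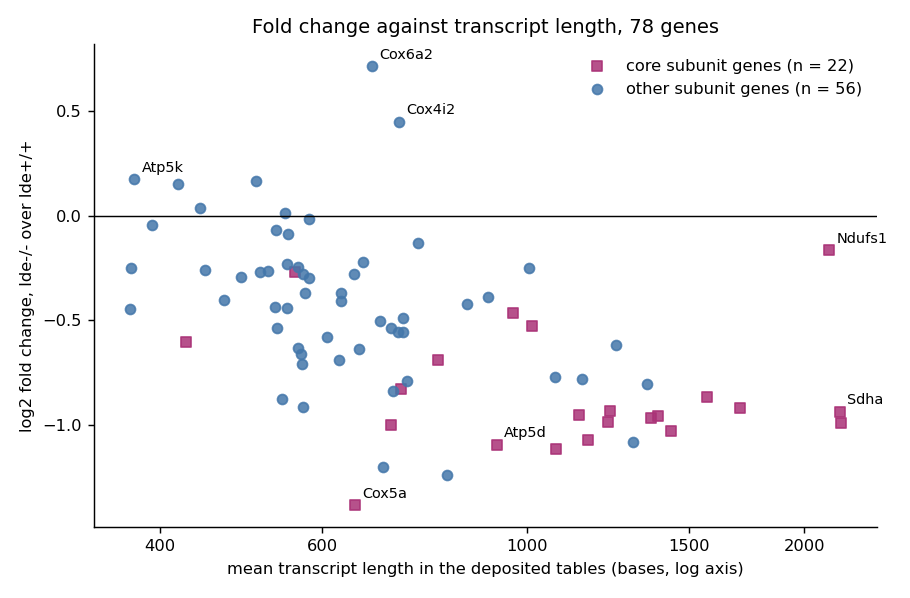
Log2 fold change (Ide-/- over Ide+/+, TMM scale) against the mean transcript length in bases on a log axis, 1 point for each of 78 tested genes, with core genes as squares. Most genes over 1000 bases lie near −1, and Ndufs1, at −0.17, stands above them.

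RSEM gives each gene a length weighted by its estimated transcripts, and TPM divides by it. This length did not overlap between genotypes for 23 of 79 members, 15 shorter and 8 longer in Ide-/- libraries. Over all tested genes it was shorter without overlap in 6.6% and longer without overlap in 4.18%. The median log2 ratio over members was 0, and 7 members were beyond 0.2. Atp5b had 890, 952 and 713 bases in the Ide-/- libraries, against 1443, 1189, 1213, 1106 and 1109 bases in the Ide+/+ libraries. Its TPM overlapped, at 190, 145 and 152 TPM in the Ide-/- libraries, against 92.1, 163, 148, 129 and 89.3 TPM in the Ide+/+ libraries, so the lower CPM of this gene had no counterpart in TPM. Sdha had 1845, 2094 and 1536 bases in the Ide-/- libraries, against 2346 to 2449 bases in the Ide+/+ libraries. Its TPM was 45.65, 43.4 and 37.39 in the Ide-/- libraries, above all Ide+/+ libraries at 22.41 to 36.14 TPM, opposite to its CPM. In the TPM fit Sdha did not pass (difference 0.49, adjusted p = 0.148, limma). Sdhd, at 1231 bases in every library, also moved, from −0.93 on the TMM scale to −0.0092 in the TPM fit. The log2 length ratio of Sdha was −0.40, and the part of length in these moves was not tested. The length of Sdhc went the other way, with 1464, 1614 and 1880 bases in the Ide-/- libraries, against 1228 to 1386 bases in the Ide+/+ libraries. GENCODE lists 9 transcripts of 343 to 1916 bases for Atp5b, 9 of 198 to 2900 bases for Sdha and 3 of 298 to 3171 bases for Sdhc. Of the 22 lower genes, 21 overlapped between genotypes in TPM, and in the TPM fit 12 had a difference below 0 and 10 above 0, with 0 passing.

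Between complexes, the balance of transcripts shifted slightly. Summed over a complex, TPM was 4045, 3788 and 3663 for complex I in the Ide-/- libraries, against 1947, 2874, 2898, 2558 and 2265 in the Ide+/+ libraries. Complex II summed to 179, 169 and 140 TPM in the Ide-/- libraries, against 162, 180, 171, 131 and 127 TPM in the Ide+/+ libraries. Complex III summed to 1224 to 1388 TPM in the Ide-/- libraries and 699 to 1060 TPM in the Ide+/+ libraries, and complex IV to 1371 to 1552 TPM in the Ide-/- libraries and 862 to 1332 TPM in the Ide+/+ libraries. Complex V summed to 1685 to 2056 TPM in the Ide-/- libraries and 1087 to 1774 TPM in the Ide+/+ libraries. For complexes I, III and IV every Ide-/- library was above every Ide+/+ library, and complexes II and V overlapped.

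As a share of all member TPM, which is free of library scaling, complex I made up 43.9% to 45.3% in the Ide-/- libraries and 39.8% to 42.4% in the Ide+/+ libraries. Complex II made up 1.73% to 1.96% in the Ide-/- libraries and 2.08% to 3.40% in the Ide+/+ libraries, and complex V 20.8% to 22.3% in the Ide-/- libraries and 22.9% to 24.6% in the Ide+/+ libraries. These 3 shares did not overlap, complex I being higher and complexes II and V lower in Ide-/- libraries. Complex III made up 14.7% to 15.1% in the Ide-/- libraries and 14.6% to 15.8% in the Ide+/+ libraries, and complex IV 16.8% to 17.4% in the Ide-/- libraries and 16.7% to 18.5% in the Ide+/+ libraries, both with overlap. The shares were not tested.

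Of the 13 subunits encoded by the mitochondrial genome, 0 passed in edgeR and 1 had an unadjusted p under 0.05. Over all 16266 tested genes 21.1% passed and 5877 had an unadjusted p under 0.05. The 2 most abundant subunits, mt-Atp8 and mt-Cytb, had log2 fold changes of 0.76 and 0.74. The median of the 13 was 0.26, with SE of 0.49 to 0.79. Their TPM over that of the nuclear members was 9.97, 17.6 and 36.6 in the Ide-/- libraries, against 1.60, 15.1, 15, 10.2 and 19.1 in the Ide+/+ libraries. The groups overlapped, and each group spanned more than the distance between the group means of 21.4 in Ide-/- libraries and 12.2 in Ide+/+ libraries. By complex the ratio was 3.72 to 10.0 for complex I in Ide-/- libraries and 0.657 to 7.67 in Ide+/+ libraries, 19.4 to 73.5 for complex III in Ide-/- libraries and 2.83 to 33.5 in Ide+/+ libraries, 10.5 to 27.2 for complex IV in Ide-/- libraries and 1.39 to 18.6 in Ide+/+ libraries, and 16.4 to 78.1 for complex V in Ide-/- libraries and 2.91 to 33.6 in Ide+/+ libraries. The lowest ratio in each complex came from Ide+/+ replicate 1.

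**Figure D4:**
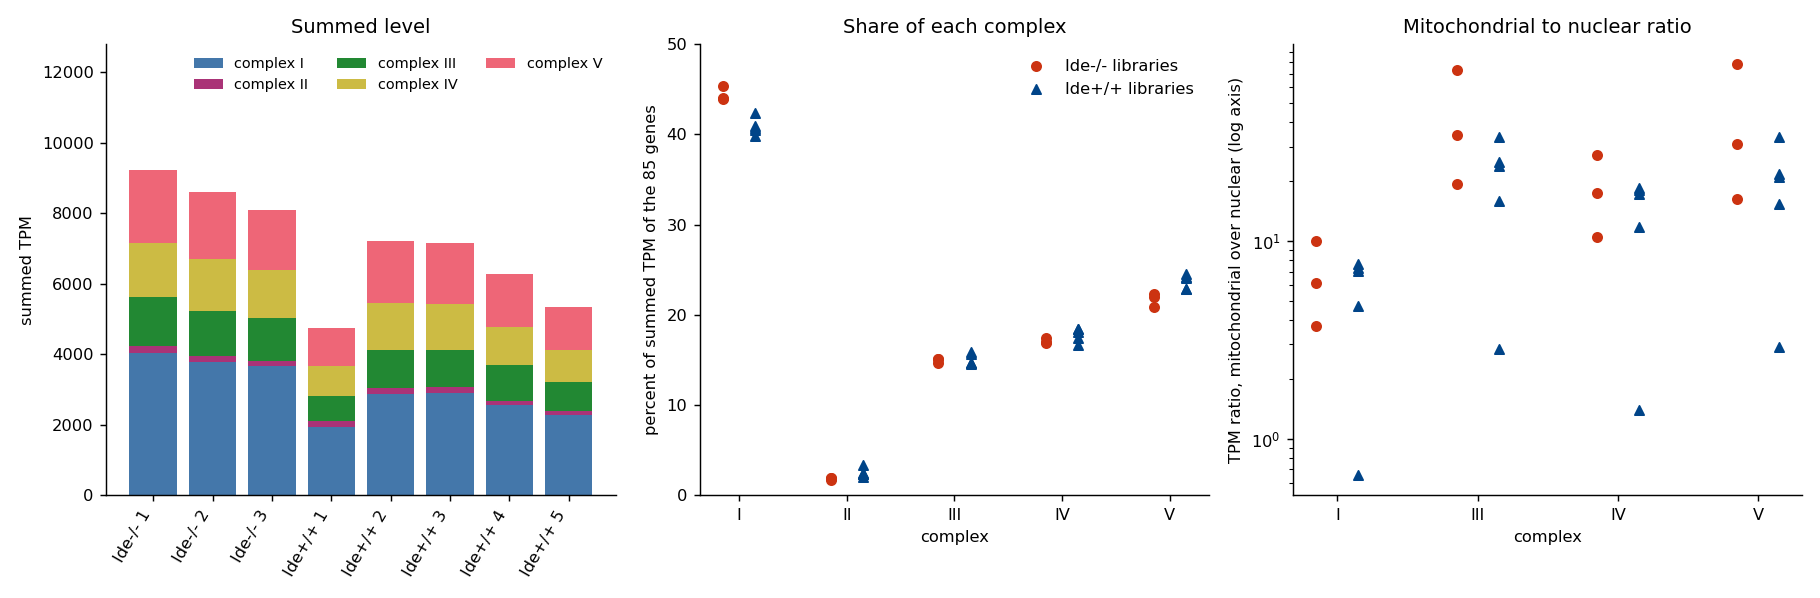
Left, summed TPM of the 85 genes by complex in each library; middle, percent of that sum per complex; right, summed TPM of mitochondrial genes over nuclear genes of the same complex (log axis), with 1 point per library, Ide-/- as circles and Ide+/+ as triangles. The summed level is 8083 to 9220 TPM in Ide-/- libraries and 4756 to 7220 TPM in Ide+/+ libraries, and only the shares of complexes I, II and V separate the groups.

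Several subunits exist as tissue isoforms, and the ratio of a pair inside a library does not depend on library scaling. Of 11 pairs, 6 had both isoforms at a mean of at least 1 TPM and were tested by an exact permutation test over all 56 splits (two-sided, smallest possible p 0.0179). Cox6a2, the heart and muscle form of subunit VIa, over Cox6a1 had a log2 ratio of −2.36, −1.99 and −1.33 in the Ide-/- libraries, against −3.15, −3.17, −3.16, −3.34 and −5.43 in the Ide+/+ libraries. The groups did not overlap, the means were −1.89 ± 0.52 in Ide-/- libraries and −3.65 ± 1.0 in Ide+/+ libraries (SD), and the difference was 1.76 (exact p = 0.0179, 0.107 after Benjamini-Hochberg adjustment over 6 pairs). Cox6a2 itself had 27.6, 31.2 and 39.4 TPM in the Ide-/- libraries, against 9.25, 17.6, 17.5, 12.7 and 2.14 TPM in the Ide+/+ libraries. In CPM it overlapped, with a log2 fold change of 0.71 (edgeR adjusted p = 0.198, SE 0.38). Summed markers of striated muscle and fat were 36.0 to 43.2 TPM in Ide-/- libraries and 5.29 to 23.8 TPM in Ide+/+ libraries, with 3 of 10 markers tested, 0 called and 4 at 0 in every library, and their part in the ratio was not tested.

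Cox4i2, the form of subunit IV described in lung and other tissues, over Cox4i1 had a log2 ratio of −4.20, −4.03 and −3.56 in the Ide-/- libraries, against −7.48, −4.64, −4.54, −5.54 and −5.18 in the Ide+/+ libraries. The groups did not overlap, with a difference of 1.54 (exact permutation p = 0.0536, adjusted 0.161), and Cox4i2 was at only 8.99 ± 0.85 TPM in Ide-/- libraries and 4.12 ± 2.87 TPM in Ide+/+ libraries (SD, n = 3 and 5). Without Ide+/+ replicate 1 the difference was 1.04. Summed pericyte and smooth muscle markers were 103 to 150 TPM in Ide-/- libraries and 17.3 to 107 TPM in Ide+/+ libraries, and their part in this ratio was not tested either. Differences were −0.36 for Cox7a2l over Cox7a2, the first of which takes part in joining complexes III and IV (adjusted exact p = 0.321), 0.71 for Ndufa4l2 over Ndufa4 (0.696), −0.07 for Atp5g1 over Atp5g2 (0.893) and 0.03 for Atp5g3 over Atp5g2 (0.893). Without Ide+/+ replicate 1 the difference was −0.20 for Cox7a2l over Cox7a2 and 0.19 for Ndufa4l2 over Ndufa4. Leaving out 1 library at a time, it was −0.22 to 0.068 for Atp5g1 over Atp5g2 and −0.059 to 0.098 for Atp5g3 over Atp5g2. A single pair with full separation at the smallest p cannot get below 0.107 after adjustment over 6 pairs, so these tests say nothing on whether the ratios are stable. The pairs with Cox6b2, Cox7a1, Cox7b2, Cox8b or Cox8c were not tested, since these isoforms averaged 0.576, 0.958, 0.126, 0.138 and 0 TPM beside their counterparts Cox6b1, Cox7a2, Cox7b and Cox8a at 59.6 to 129 TPM.

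**Figure D5:**
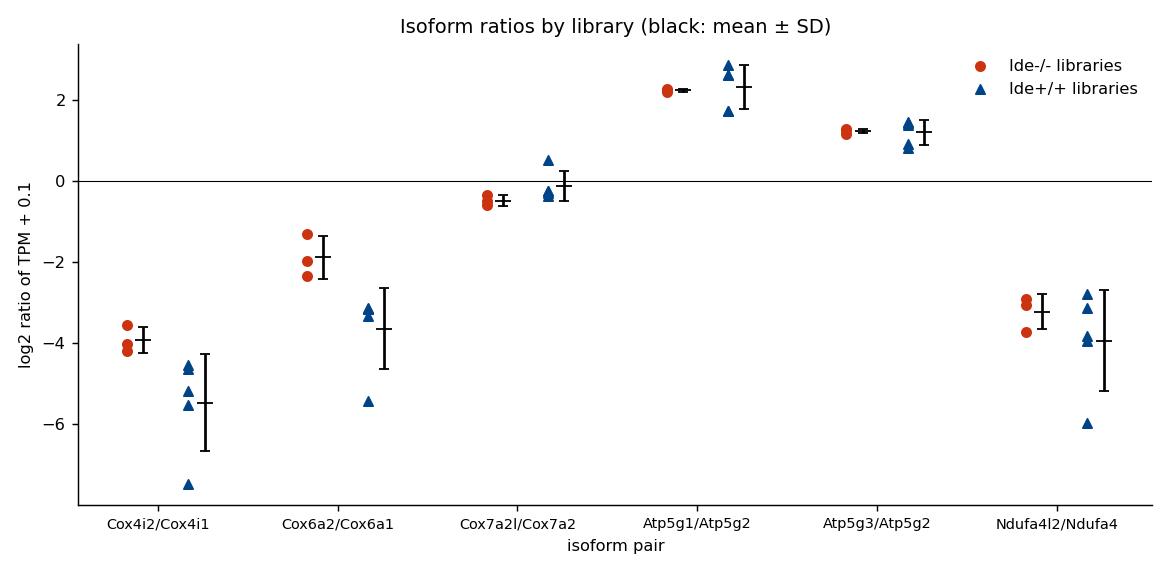
Log2 ratio of the TPM of 2 isoforms (with 0.1 TPM added to each) by library, Ide-/- as circles and Ide+/+ as triangles, with mean ± SD in black. The Cox6a2/Cox6a1 and Cox4i2/Cox4i1 ratios are higher in all Ide-/- libraries than in any Ide+/+ library, and the Atp5g ratios vary little within Ide-/-.

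On the TMM scale, factors that build the complexes passed in both directions, where 10.4% of all genes were higher and 10.6% lower. In the TPM fit, which called 37.1% of all genes higher and 2.25% lower, 9 complex I, 2 complex III, 8 complex IV and 3 complex V assembly genes were higher and 0 of any were lower, with 0 of complex II called. In complex I assembly, 1 of 17 genes was higher and 1 lower (median log2 fold change −0.09). Timmdc1, which joins intermediates of the membrane arm, was at 0.67 (edgeR adjusted p = 0.0402, SE 0.21), and Acad9, which takes part in early assembly, was at −0.62 (edgeR adjusted p = 0.0256, SE 0.17). In complex III assembly 1 of 6 was higher and 0 lower. Ttc19, which clears fragments of the Rieske protein, had 9.61, 9.23 and 15.2 CPM in the Ide-/- libraries, against 5.61, 6.49, 5.65, 6.12 and 6.44 CPM in the Ide+/+ libraries (0.89, edgeR adjusted p = 0.0116, SE 0.20).

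In complex IV assembly, 2 of 24 tested genes were higher and 2 lower on the TMM scale. Cox11, which delivers copper to Co1, had 7.16, 6.63 and 9.90 CPM in the Ide-/- libraries, against 3.11, 3.11, 3.70, 3.77 and 4.83 CPM in the Ide+/+ libraries (log2 fold change 1.09, edgeR adjusted p = 0.00653, SE 0.22). Slirp, which stabilises mitochondrial messenger RNA, had 40.2, 51.5 and 66.7 CPM in the Ide-/- libraries, against 20.9, 24.2, 24.8, 24.6 and 35.5 CPM in the Ide+/+ libraries (1.02, edgeR adjusted p = 0.00947, SE 0.22). Cox15, an enzyme of heme A synthesis, had 6.74, 5.57 and 6.60 CPM in the Ide-/- libraries, against 18.0, 10.5, 9.74, 14.3 and 11.4 CPM in the Ide+/+ libraries (−1.01, edgeR adjusted p = 0.0121, SE 0.23). In these 3 genes the groups did not overlap. The fourth, Coa5, was at −0.73 (edgeR adjusted p = 0.0385, SE 0.23). Of the complex II and complex V assembly lists, 0 of 4 and 0 of 6 passed, with Sdhaf2 and Sdhaf4 at −0.20 and −0.31, and Atpif1, the inhibitor of the ATP synthase, and Usmg5 at 0.25 and −0.31.

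Among 15 tested genes for cytochrome c and coenzyme Q, the mobile carriers between the complexes, 2 were lower and 1 higher on the TMM scale. Over all genes 10.6% were lower and 10.4% higher there. The TPM fit called 1 of the 15 lower and 5 higher, where it called 2.25% and 37.1% of all genes. Coq8a, a kinase-like protein needed for coenzyme Q synthesis, had 6.91, 4.23 and 4.95 CPM in the Ide-/- libraries, against 49.3, 14.6, 15.4, 23.1 and 27.5 CPM in the Ide+/+ libraries (log2 fold change −2.25, edgeR adjusted p = 0.00352, SE 0.40). The difference was larger than that of any respiratory chain member. Coq3, a methyltransferase of the same pathway, was at −1.10 (edgeR adjusted p = 0.0391, SE 0.34) and Coq10a, a coenzyme Q binding protein, at 0.61 (edgeR adjusted p = 0.0233, SE 0.17).

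Of 20 genes used as marks of mitochondrial mass, 4 were lower and 0 higher on the TMM scale, where 10.6% of all genes were lower and 10.4% higher, with a median log2 fold change of −0.58, beside −0.53 for the respiratory chain members. The TPM fit called 4 of them higher and 0 lower, where it called 37.1% and 2.25% of all genes. The lower genes on the TMM scale included the prohibitins Phb at −0.99 (edgeR adjusted p = 0.0123, SE 0.23) and Phb2 at −0.60 (edgeR adjusted p = 0.0408, SE 0.19) and the outer membrane channel Vdac1 at −0.69 (edgeR adjusted p = 0.0471, SE 0.22). Of 14 regulators of mitochondrial biogenesis, 0 passed in edgeR and 0 had an unadjusted p under 0.05, with a median of −0.29. Over all 16266 tested genes 21.1% passed and 5877 had an unadjusted p under 0.05. The TPM fit called 1 regulator higher and 0 lower, beside 37.1% and 2.25% of all genes. The mitochondrial transcription factors Tfam and Tfb2m were at −0.02 (SE 0.19) and −0.47 (SE 0.30).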

How the data were processed

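Islet RNA of 3 Ide-/- and 5 Ide+/+ samples was measured. The submitters' processing notes name STAR 2.7.1a, RSEM 1.3.1 and GRCm38. Annotation release and strandedness: not given in the sources used here. Genes that overlap or are antisense to one another, and near-identical copies (8 pseudogenes carry names of members), may share reads. The deposited expected counts are RSEM estimates of reads per gene without normalization. The deposited TPM are corrected for length and for library size by the authors. The deposited FPKM values were not used.

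Symbols came from GENCODE M21, which held 55227 of 55487 identifiers. Expected counts were rounded and tested in R 4.3.3 with edgeR 4.0.16 (quasi-likelihood F test, robust, TMM, its default low-count filter with a minimum count of 10 and a total of 15, genotype as the only term, Benjamini-Hochberg adjustment over all tested genes). Log2 fold changes are Ide-/- over Ide+/+, and SE is their absolute size over the root of the F statistic. CPM are TMM-scaled. Isoform ratios were taken as log2 of TPM + 0.1 and tested by exact permutation in Python with numpy 2.4.6. Alternatives were DESeq2 1.42.0, limma 3.58.1 (voom, and log2 of TPM + 1 or + 0.1, also with TPM rescaled), RLE size factors, granule gene scaling, no low-count filter, a length trend removed, an acinar covariate, a replicate block, each library left out, and, chosen after seeing the data, Ide+/+ replicates 2 and 3 summed. The count fit was tested on simulated counts.

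Replicate numbers occur in both genotypes. The deviations of libraries with the same number from their group means correlated at −0.0173, −0.0189 and 0.0203 across genes. These small values gave no sign of pairing by number. They cannot exclude a shared litter, batch or day, which the labels do not give. Depth was 7143424 to 33371662 counts per library, and SE of called members were 0.17 to 0.36.

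The members and lists were chosen with earlier results of these data known. The genes named are, per complex, up to 6 called members by smallest p and the 2 with the highest mean TPM, the isoform pairs, the core subunits, and per list up to 3 called members or else the 2 most abundant. Other members are named after their values were seen. A few genes that enter the counts are not reported here by name.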

Additional observations from a re-analysis of the deposited data

Results flagged for a closer look

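The level of 47 named members, the 6 isoform ratios, and the summed TPM and mitochondrial to nuclear ratio of the complexes were checked for a library far from the rest of the 5 Ide+/+ libraries, 62 quantities in all. A library was listed where its gap to the nearest library exceeded 0.71 of the range of its group, which chance gives in about 1 in 20 groups. This held for 8 quantities. The Ide-/- group, with 3 libraries, is too small for the check.

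In 6 of the 8 it was a member's CPM that stood high in Ide+/+ replicate 1. Sdhc had 56.9 CPM there, with 28.8 CPM in the next library. Sdha had 195 CPM, with 105 CPM in the next, and Sdhd had 106 CPM, with 70.0 CPM in the next, so that 3 of the 4 complex II genes were listed. Ndufs1, a core subunit of complex I, had 65.2 CPM, with 32.3 CPM in the next library. Atp5a1 had 216 CPM, with 129 CPM in the next, and Cox7a2l had 198 CPM, with 110 CPM in the next. Without this library 25 members were lower on the TMM scale. Sdhc, Sdhd and Atp5a1, which were lower in Ide-/- islets with all libraries, had their lowest Ide+/+ values at 22.9, 61.6 and 108 CPM, above the highest Ide-/- values of 17, 41.3 and 70.7 CPM.

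The other quantities were isoform ratios. The Cox7a2l/Cox7a2 log2 ratio was 0.52 in Ide+/+ replicate 1, with −0.24 in the next library. The Cox6a2/Cox6a1 log2 ratio was −5.43 in Ide+/+ replicate 5, with −3.34 in the next library, from 2.14 TPM of Cox6a2. Leaving out 1 library at a time, the Ide-/- minus Ide+/+ difference of the Cox6a2/Cox6a1 ratio was 1.31 to 1.99.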

How the results depend on the processing

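Depth ran from 7143424 counts, in an Ide-/- library, to 33371662. The number of genes called was 3426, and 1766 with granule gene scaling, 2101 with rescaled TPM, 12 with the acinar covariate and 1547 to 4280 without 1 library. Lower members numbered 22, and 4 with granule gene scaling, 0 with log2(TPM + 1), 0 with log2(TPM + 0.1), 0 with TPM unfiltered, 2 with rescaled TPM, 0 with the covariate and 1 to 31 without 1 library. Higher members numbered 0, and 13 with log2(TPM + 1), 11 with log2(TPM + 0.1), 10 with TPM unfiltered and 2 with rescaled TPM. No sign of pairing by replicate number was seen, and the fit with a replicate block called 1171 genes and 2 lower members, Atp5d and Sdhc. The cause of these moves was not tested.

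Of 79 members 72 had a log2 fold change below 0, and 6 with the covariate, 12 in log2(TPM + 1) and 39 of 80 with rescaled TPM. The following are named members that turned above 0 and passed on the TMM scale or in that alternative. With the acinar covariate the median SE over members was 0.46, against 0.25 on the TMM scale, and 0 members passed. The turned values there were 0.48 for Ndufv1, 1.12 for Ndufb9, 1.03 for Ndufa9, 0.65 for Ndufs7, 0.47 for Ndufa10, 0.91 for Ndufb5, 0.039 for Sdhd, 0.068 for Sdhc, 0.18 for Cyc1 and 0.53 for Uqcrfs1. They were also 0.65 for Uqcrh, 0.80 for Uqcrc2, 0.080 for Cox4i1, 1.17 for Cox5a, 0.056 for Atp5b, 0.27 for Atp5a1, 0.78 for Atp5c1, 1.40 for Atp5o and 0.055 for Atp5e. With log2(TPM + 1) and, in brackets, log2(TPM + 0.1), they were 0.30 (0.31) for Ndufv1, 0.13 (0.13) for Ndufs7, 0.14 (0.15) for Ndufa10, 0.032 (0.033) for Ndufb5, 0.89 (0.89) for Ndufc1 and 1.07 (1.13) for Ndufs1. They were 0.049 (0.049) for Uqcrh, 0.19 (0.20) for Uqcrc2, 0.022 (0.022) for Cox4i1, 0.74 (0.74) for Cox6c, 0.41 (0.42) for Atp5b, 0.30 (0.31) for Atp5g2 and 0.28 (0.28) for Atp5e. Without a filter the log2(TPM + 1) values were the same and again above 0, with Cox6c not counted as turned. With rescaled TPM the value was 0.66 for Ndufs1. Over the named genes, 753 values kept direction and side of the threshold, 178 no longer passed and 45 newly passed.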
